A study of Mus musculus with 8 samples.

Results

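Pleiotrophin, midkine and the cell-surface proteins that bind them are described here in GFP-positive cells of the embryonic mouse kidney. The set holds 8 genes: the ligands Ptn and Mdk, the receptors Ptprz1 and Alk, and the syndecans Sdc1, Sdc2, Sdc3 and Sdc4. They were taken by name from the 30041 genes on the arrays, and 12 of the 39429 probes present on both array designs carry these names. The set was chosen by the Ptn values in null and control pools, where Ptn had already been seen to be lower in null, so that difference is given as a description with no test. All 8 genes had at least 1 probe bright enough to be tested, and 11 of the 12 probes passed.

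The cells came from kidney rudiments of NMRI mouse embryos at E11.5 and were sorted for GFP into pools of about 100000 cells of both sexes. The 2 Tbx18VP16 pools were Tbx18(cre/+);Hprt(CAG:Tbx18VP16-GFP), the 3 Tbx18 null pools were Tbx18(GFP/GFP), and the 3 control pools were Tbx18(GFP/+). Every group thus carries at least 1 altered Tbx18 allele, controls included. GFP is read from the Tbx18 locus in null and control cells, but in Tbx18VP16 cells it comes from the Hprt locus in cells with a history of Cre expressed from Tbx18. Tbx18VP16 joins the T-box factor Tbx18 to the VP16 activation domain of a virus. The labels do not say that pools of a group came from separate litters, so p-values measure the spread between these pools. In bulk pools, fewer cells of a type and less RNA per cell cannot be told apart.

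Pleiotrophin and midkine are small secreted growth factors rich in basic residues and cysteines, and they bind the sulfated sugar chains of proteoglycans. Ptprz1 is a receptor tyrosine phosphatase whose extracellular part carries chondroitin sulfate, and ligand binding is known to lower its phosphatase activity. Syndecans are membrane proteoglycans with heparan sulfate chains that hold such ligands at the cell surface. In the kidney, pleiotrophin is known as a product of mesenchymal cells that lets isolated ureteric bud branch in culture.

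The sequences below are those of a pair of array probes, shown because each lies in the coding part of a ligand and displays what the array measured. The Ptn probe carries the largest difference among the 8 genes. Its capitals mark the 2 cysteine codons of the only reading frame without a stop, which holds 19 codons. In the Mdk probe, capitals mark the 8 lysine codons in the frame that ends at the stop codon, in the basic tail of the protein.
Ptn: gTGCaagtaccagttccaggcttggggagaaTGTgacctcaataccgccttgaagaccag
Mdk: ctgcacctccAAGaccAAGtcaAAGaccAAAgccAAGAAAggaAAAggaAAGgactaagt
The files place the Ptn probe at chr6:36691376-36691435 on the minus strand of mm9. The 60 bases of the Mdk probe span 762 bases at chr2:91770245-91771006, also on the minus strand, so they join sequence from both sides of an intron. This Mdk probe is the dimmer of 2 for the gene, and the brighter one was used in the fits.

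A level is the log2 of a probe's background-corrected signal minus the array's 75th percentile, so 0 marks a bright probe and a difference of 1 is a 2-fold change. Between 60.09% and 65.98% of probes were well above background on each array, and no spot was saturated. Tbx18 itself had levels of 1.34 and 1.06 in Tbx18VP16 pools, -2.4, -1.34 and -2.35 in null pools, and -0.022, 1.2 and 1.04 in control pools. The null pools were below all others, and where this probe lies relative to the replaced part of the gene is unknown here. Tbx18VP16 arrays were of another array design with a slide and a scan of their own, so genotype, design, slide and scan cannot be told apart in any comparison with them. Marker genes of other cells were summed as linear levels, in units of the array's 75th percentile. Null pool 3 stood apart, with an erythroid sum of 541 against 3.5 to 30.9 on the other 7 arrays and an epithelial sum of 18.2 against 4.96 to 8.66. Nephron progenitor sums were 62.7 to 66.2 in Tbx18VP16, 53.9 to 67.5 in null and 30.8 to 45.4 in control pools, with 11 of 11 markers well above background on every array. Sums of 9 ureteric mesenchyme markers, also all above background, were 38.2 to 39.6 in Tbx18VP16, 37.2 to 69.5 in null and 64.2 to 89.2 in control pools. Tbx18, the altered gene, is 1 of these 9 markers, so genotype itself enters these sums.

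Ptn was lower in both altered genotypes than in control, and the other ligand, Mdk, was not called in any comparison. The brighter Ptn probe read 2.55 and 2.72 in Tbx18VP16 pools. The null pools gave 2.59, 2.86 and 2.95, and the control pools 4.53, 4.73 and 4.53. All 5 pools of altered genotype lay below all 3 control pools, and Tbx18VP16 and null pools overlapped. The null mean of 2.8 ± 0.19 was 1.79 below the control mean of 4.59 ± 0.12 (SD, n = 3 each), a 3.47-fold lower level and the 57th lowest difference of 19657 genes. Pools of the same replicate number differed by -1.94, -1.86 and -1.58, and leaving out null pool 3 gave -1.87. The sums of nephron progenitor markers given above were higher in all null pools than in all control pools. So were those of 14 ureteric epithelium markers, at 6.45 to 18.2 in null and 4.96 to 5.48 in control pools, and of 12 endothelium markers, at 5.38 to 19.6 in null and 3.91 to 4.91 in control pools. Between 10 and 14 of the epithelium markers were well above background in null pools and 10 to 12 in control pools, and 7 to 12 of the endothelium markers in null pools and 7 to 10 in control pools. Ureteric mesenchyme sums overlapped, with the lowest in null. The part of these cells in the Ptn difference was not tested.

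In Tbx18VP16 pools Ptn averaged 2.63 ± 0.12 (SD, n = 2), which was 1.96 ± 0.22 (SE) below control, or 3.89-fold lower. The interval of that difference ran from -2.48 to -1.44, and limma's Benjamini-Hochberg adjusted p over 20542 genes was 0.0045. It shares its control pools with the null comparison, so both differences contain the same 3 high values. Null and control values of Ptn chose the set, so no interval or adjusted p given for Ptn is read as a test. The adjusted p was 0.0932 without Tbx18VP16 pool 1 and 0.0949 without pool 2, where the differences were -1.88 and -2.05. Between Tbx18VP16 and null pools the difference was -0.17, with an interval from -0.68 to 0.35 and an adjusted p of 0.695 in limma's fit.

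The second Ptn probe lies 198 bases further along the transcript and 25713 bases away in the genome. It read 2.75 and 2.99 in Tbx18VP16 pools, 1.56, 2.45 and 2.87 in null pools, and 3.64, 4.24 and 4.25 in control pools. By this probe too every altered pool was below every control pool. It reads the same RNA of the pools whose Ptn values chose the set, so nothing is read from that separation. The null difference was -1.76 with this probe, close to that of the brighter one, with pair differences of -2.09, -1.8 and -1.38. The Tbx18VP16 difference from control was -1.18, with an adjusted p of 0.133 in limma's fit, and that from null was 0.58 in place of -0.17. The probes thus disagree on how low Ptn was in Tbx18VP16 pools.

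**Figure D1:**
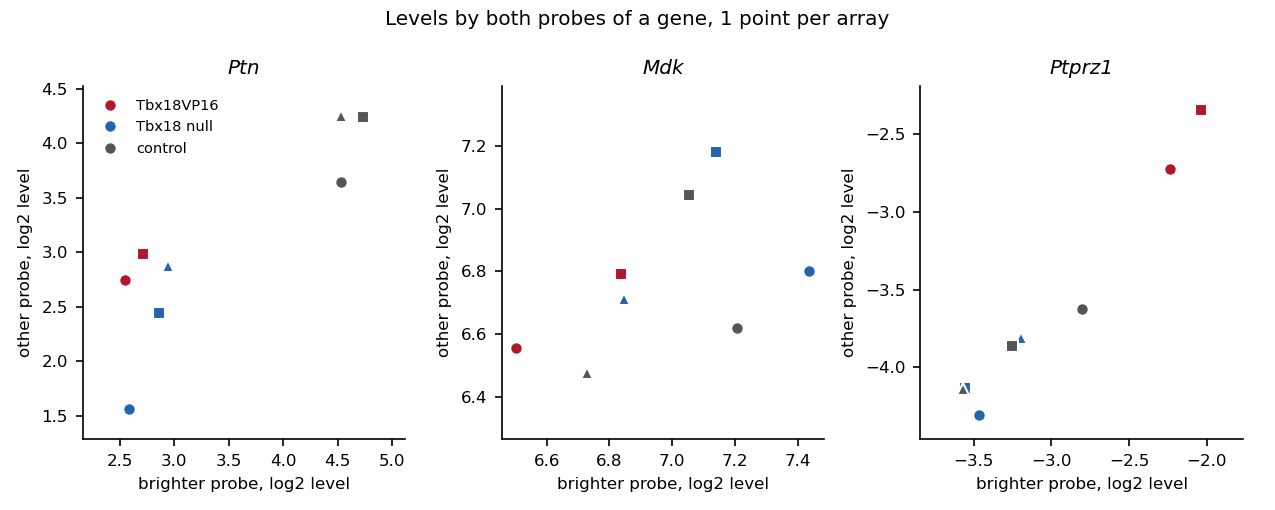
Level of each array by the brighter probe (x axis) and the other probe (y axis) of Ptn, Mdk and Ptprz1, both as log2 relative to the array's 75th percentile. Red, blue and grey mark Tbx18VP16, Tbx18 null and control pools, and circles, squares and triangles mark replicates 1, 2 and 3. For Ptn the 3 control pools sit apart at the upper right by both probes, and for Ptprz1 both Tbx18VP16 pools do.

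Mdk is the second ligand of the family and is known for broad expression in embryonic mesenchyme and epithelium. Its brighter probe read 6.5 and 6.84 in Tbx18VP16 pools, 7.44, 7.14 and 6.85 in null pools, and 7.21, 7.05 and 6.73 in control pools. In both the null and the control group pool 1 was highest and pool 3 lowest. The null difference from control was 0.15 ± 0.26 (SE), with an interval from -0.48 to 0.76. The Tbx18VP16 differences were -0.33 ± 0.27 from control (adjusted p = 0.516, limma) and -0.47 ± 0.27 from null (adjusted p = 0.346). With this probe the Tbx18VP16 pools lay just below all null pools, and by the other Mdk probe these groups overlapped.

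Ptprz1 showed its highest levels in Tbx18VP16 pools. The brighter probe read -2.24 and -2.04 there, against -3.47, -3.56 and -3.2 in null pools and -2.81, -3.26 and -3.57 in control pools. Tbx18VP16 pools lay above all other pools, and null and control pools overlapped. The difference was 1.07 ± 0.28 (SE) from control, with an interval from 0.43 to 1.72 and a limma adjusted p of 0.0682. From null it was 1.27 ± 0.28, with an interval from 0.62 to 1.91 and an adjusted p of 0.0506, so neither passed the threshold of 0.05. Without null pool 3 the difference from null was 1.37, with an adjusted p of 0.0695. Ptprz1 passed against control without control pool 1 (1.27, adjusted p = 0.0473), and against null without control pool 1 or 3 (1.27, adjusted p = 0.0404 and 0.0469). Without Tbx18VP16 pool 1 or 2 the differences from control were 1.17 and 0.97 (adjusted p = 0.308 and 0.44), and those from null 1.37 and 1.17 (adjusted p = 0.297 and 0.41). Without control pool 3 the difference from control was 0.89 (adjusted p = 0.124), and over all fits without 1 pool the adjusted p ran up to the values without Tbx18VP16 pool 2.

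A second Ptprz1 probe, just upstream of the first, gave larger differences that passed. It read -2.72 and -2.35 in Tbx18VP16 pools, -4.31, -4.13 and -3.81 in null pools, and -3.63, -3.87 and -4.14 in control pools. Its differences were 1.34 from control (adjusted p = 0.0321, limma) and 1.55 from null (adjusted p = 0.0262). A further probe was well above background on 1 of 8 arrays and is placed on different chromosomes by the files of the 2 designs, so it was not used. Ptprz1 is also expressed by neural and glial cells. The sum of 13 markers of neural crest, neurons and glia was 2.32 to 2.39 in Tbx18VP16, 2.85 to 3.73 in null and 2.5 to 2.82 in control pools, and the part of such cells in the Ptprz1 difference was not tested. Between 8 and 13 of the 13 markers were above background, and Foxd3 and Erbb3 were above it in null pool 3 alone.

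Alk is a receptor tyrosine kinase that has been linked to pleiotrophin and midkine, and whose own activating ligands are the Alkal proteins. It read -3.83 and -3.55 in Tbx18VP16 pools, -3.16, -3.84 and -4.31 in null pools, and -2.89, -3.45 and -3.37 in control pools. The null and control pools overlapped, while both Tbx18VP16 pools lay just below the control pools. The differences were -0.45 ± 0.36 for Tbx18VP16 against control (SE, adjusted p = 0.497, limma) and -0.53 ± 0.35 for null against control. All 3 pairs of null and control pools were lower in null, by -0.27, -0.39 and -0.94. When the replicate number was a block, the SE of the null difference was 0.18 and its interval ran from -0.99 to -0.073. Alk was not called in that fit either. Of the Alkal ligands, Alkal2 was bright enough to be tested, at means of -4 in Tbx18VP16, -2.84 in null and -3.63 in control pools, and it was not called in limma's fits without the replicate block.

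**Figure D2:**
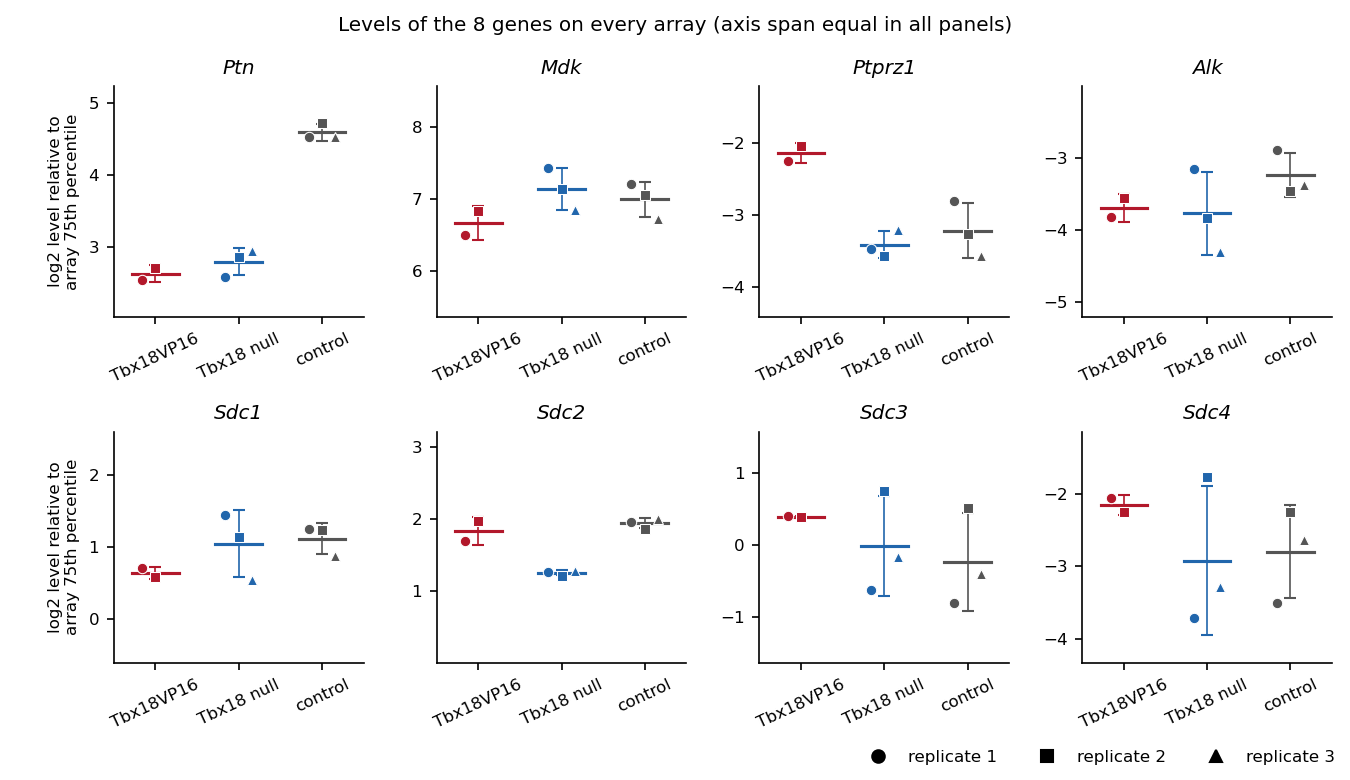
Level of each of the 8 genes on every array, as log2 relative to the array's 75th percentile, by its brightest probe. Points are pools with their replicate number as shape, horizontal bars are group means and vertical bars 1 SD (n = 2 for Tbx18VP16, n = 3 for null and control). Ptn is lower in the 5 Tbx18VP16 and null pools than in the 3 control pools, and Sdc2 is lowest in the null pools.

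Among the syndecans Sdc2 had its lowest levels in null pools, and Sdc1, Sdc3 and Sdc4 varied more between pools than between the null and control groups. Sdc2 is the syndecan known for expression in mesenchymal cells. It read 1.7 and 1.97 in Tbx18VP16 pools, 1.27, 1.22 and 1.29 in null pools, and 1.96, 1.87 and 2 in control pools. The 3 null pools lay close together and below every pool of the other groups. Their mean was 1.26 ± 0.037 against 1.94 ± 0.071 in control pools (SD, n = 3 each), a difference of -0.69 ± 0.21 (SE) or 1.61-fold lower. Its interval ran from -1.18 to -0.2, and the adjusted p over 19657 genes was 0.593 in limma's fit, or 0.0874 with the replicate number as a block, so it did not pass. The pair differences were -0.69, -0.65 and -0.72, and leaving out null pool 3 gave -0.7. Tbx18VP16 and control pools overlapped, with a difference of -0.11 ± 0.21 (adjusted p = 0.795). Tbx18VP16 pools were above null pools by 0.58 ± 0.21, with an interval from 0.1 to 1.06 and an adjusted p of 0.16.

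Sdc1 is best known as the syndecan of epithelia and of the mesenchyme that condenses around the ureteric bud. It read 0.7 and 0.58 in Tbx18VP16 pools, 1.45, 1.15 and 0.55 in null pools, and 1.25, 1.23 and 0.87 in control pools. Tbx18VP16 pools lay below the control pools but within the range of the null pools, of which pool 3 was lowest. The differences were -0.48 ± 0.31 for Tbx18VP16 against control (SE, adjusted p = 0.395, limma) and -0.071 ± 0.3 for null against control. The null difference was 0.18 without null pool 3.

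Sdc3, the syndecan first described in the nervous system as a receptor for pleiotrophin, read 0.4 and 0.38 in Tbx18VP16 pools, -0.62, 0.75 and -0.17 in null pools, and -0.81, 0.52 and -0.4 in control pools. In null and control alike, pool 2 was highest and pool 1 lowest, and the pair differences of 0.18, 0.23 and 0.24 were nearly equal. Sdc4, a syndecan of cell-matrix contacts, read -2.05 and -2.25 in Tbx18VP16 pools, -3.71, -1.75 and -3.29 in null pools, and -3.51, -2.24 and -2.63 in control pools. Here too pool 2 was highest and pool 1 lowest in both groups, so Sdc3 and Sdc4 differed more between replicate numbers than between null and control. The null differences from control were 0.22 ± 0.47 for Sdc3 and -0.13 ± 0.56 for Sdc4 (SE). Against control, Tbx18VP16 pools differed by 0.62 ± 0.48 for Sdc3 and 0.65 ± 0.59 for Sdc4, and neither was called in limma's fit.

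**Figure D3:**
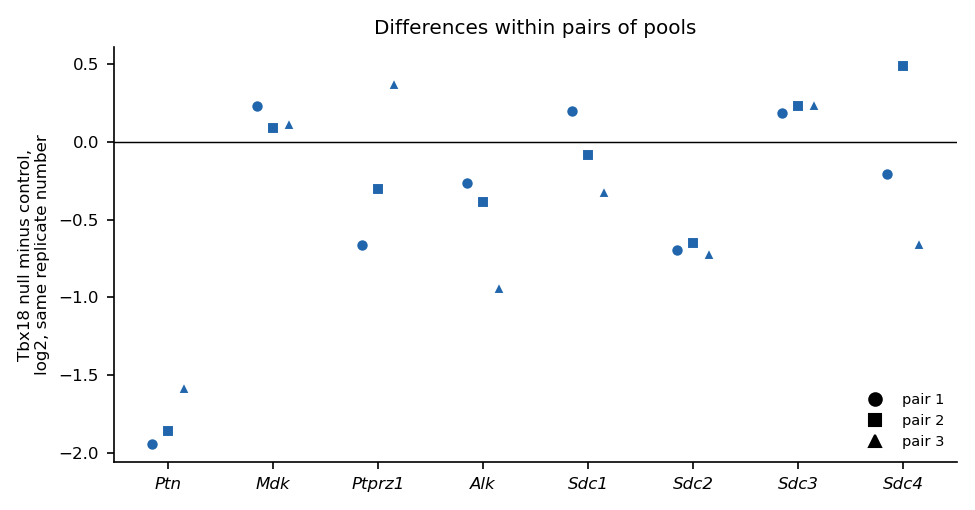
Difference of the null and the control pool of the same replicate number for each of the 8 genes, in log2, with circles, squares and triangles for pairs 1, 2 and 3. Ptn and Sdc2 are below 0 by a similar amount in all 3 pairs, Mdk and Sdc3 are slightly above 0, and Ptprz1, Sdc1 and Sdc4 have pairs on both sides.

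Counted over the set, 0 of 8 genes were called between null and control by limma, where the share over all 19657 genes was 0%. Ptn is left aside here, since its null and control values chose the set. In the fit without the replicate block, 1 of the other 7 had an unadjusted p under 0.05, Sdc2, against 944 genes or 4.8% of all. This count depends on the fit, since in the fit with the block the intervals of both Sdc2 and Alk were wholly negative. They ran from -0.99 to -0.39 for Sdc2 and from -0.99 to -0.073 for Alk. The matching share of all genes is not given here for that fit. With the replicate number as a block, 1 gene of the set was called, Ptn, lower, where 0.448% of all genes were called lower and 0.931% in either direction. Nothing is read from that call, since these values chose Ptn. Null and control pools did not overlap in Sdc2, which was lower, and in Ptn by the choice of the set. Over all genes 3.58% were lower without overlap and 4.17% higher. The median difference of the 8 genes, with Ptn among them, was -0.16, against 0.0069 over all genes, and nothing is read from it.

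Between Tbx18VP16 and control 1 of 8 was called, Ptn, lower, where 3.3% of all genes were called lower and 5.34% in either direction. That call uses the 3 control pools whose Ptn values were among those that chose the set, so nothing is read from the count, and 0 of the other 7 were called. At an unadjusted p under 0.05 there was 1 of these 7, Ptprz1, against 22.8% of all genes. The pools did not overlap in 1 gene of the set that was higher (Ptprz1) and 3 that were lower (Ptn, Alk and Sdc1). Over all genes these shares were 17.4% and 30.3%, so a gap between 2 and 3 pools was common. The median difference was -0.22 for the set, with Ptn included, and -0.14 over all genes. The shift of all genes depends on the scaling, at -0.017 with quantile normalisation and 0.32 with scaling by all spots. Between Tbx18VP16 and null 0 of 8 were called by limma, where 3.68% of all genes were. At an unadjusted p under 0.05 there were 2, Ptprz1 and Sdc2, where 22% of all genes were, so this share is near that of all genes. Pools did not overlap in 2 that were higher (Ptprz1 and Sdc2) and 1 that was lower (Mdk), against 16.2% and 31.9% of all genes.

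**Figure D4:**
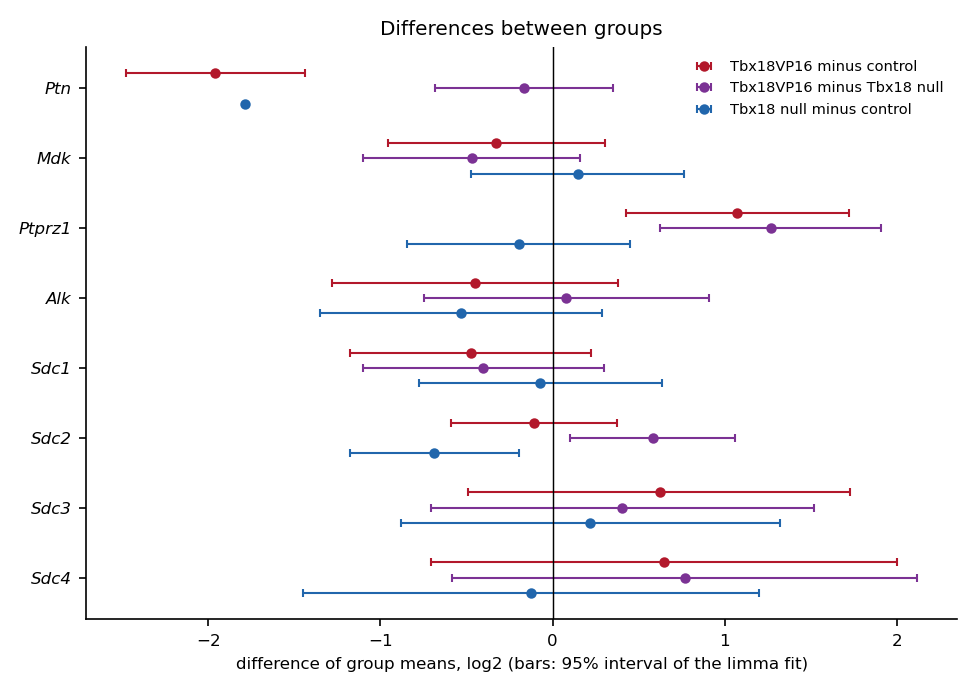
Difference of group means for the 8 genes, in log2, with the 95% interval of the limma fit as bars. Red is Tbx18VP16 minus control, purple Tbx18VP16 minus Tbx18 null and blue Tbx18 null minus control. Ptn is far below 0 in both comparisons with control, and Ptprz1 is above 0 in both comparisons with Tbx18VP16. The Ptn null difference has no bar because it was among the values that chose the genes. Ptn bars in the Tbx18VP16 comparisons use null or control values that chose the genes and are not read as tests.

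The chains that hold these ligands were examined through 34 genes of heparan sulfate synthesis and editing. Of the 29 tested between Tbx18VP16 and control, 4 were called higher by limma and 0 lower, where 2.04% of all genes were called higher. Differences were positive in 22 of them, and their median was 0.37 against -0.14 over all genes. Hs3st1, which adds a 3-O-sulfate, had a mean of -1.94 against -3.53 in control pools, a difference of 1.59 ± 0.26 (SE, adjusted p = 0.0159). Sulf1, a secreted enzyme that removes 6-O-sulfates from finished chains, had a mean of 2.72 against 1.24, a difference of 1.48 ± 0.29 (adjusted p = 0.0301). The other 2 were dim in control pools. With the background correction of the main fit, Ndst3, which starts sulfation of the chain, was higher by at least 5.33-fold, with an adjusted p of 0.0414. No control array had it well above background. Hs3st5 differed by 2.04 ± 0.46 (adjusted p = 0.0436) and was well above background on 1 of 3 control arrays. Both were in the test through the arrays on which they were bright, so nothing is read from their adjusted p. For the same reason the count of 4 is not read against the share of all genes. Among the 26 genes of the list also bright enough to be tested between null and control, 2 were called, Hs3st1 and Sulf1, and 19 differences were positive. With normexp background correction the differences of Ndst3 and Hs3st5 were 0.83 and 0.24 on the log2 scale, so the Ndst3 bound depends on the correction. None of the 4 calls held without Tbx18VP16 pool 1, Tbx18VP16 pool 2 or control pool 2, where 0 genes of the list were called, and 2 held without control pool 1 or null pool 2.

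Against null pools, Sulf1 was higher in Tbx18VP16 pools by 2.59 ± 0.29 (SE, adjusted p = 0.00753, limma) and Hs3st1 by 1.58 ± 0.26 (adjusted p = 0.0224). Hs3st6, another 3-O-sulfotransferase, was lower by 2.97 on the log2 scale, with means of -2.07 in Tbx18VP16 and 0.9 in null pools (adjusted p = 0.0138). Its mean in control pools was -1.79. These made 2 higher and 1 lower of 29 tested, where 1.17% of all genes were called higher and 2.5% lower, and 0 of the 29 were called when either Tbx18VP16 pool was left out. Without null pool 2, Sulf1 alone was called, and without null pool 3 Hs3st1 had an adjusted p of 0.0517. Between null and control, 0 of 26 were called by limma, with a median difference of -0.025. Sulf1 and Hs3st6 showed the largest differences there, of -1.11 and 2.69, with adjusted p of 0.418 and 0.113. When null and control pools were paired by replicate number, 1 of the 26 was called, Sulf1, lower in null, with an adjusted p of 0.0489 in limma's fit.

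**Figure D5:**
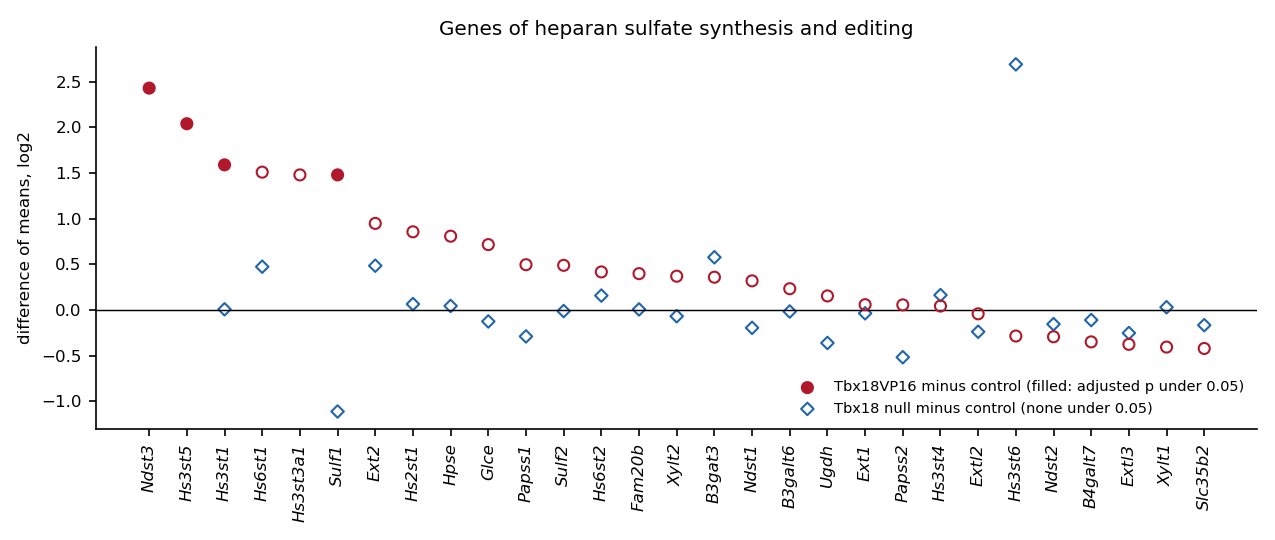
Differences from control for genes of heparan sulfate synthesis and editing, in log2, ordered by the Tbx18VP16 value. Red circles are Tbx18VP16 minus control, filled for the 4 genes with an adjusted p under 0.05, and blue diamonds are Tbx18 null minus control for the 26 genes tested there. In 22 of 29 genes the red circle is above 0, and Hs3st6 has the highest diamond and Sulf1 the lowest.

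The other lists were read in the same fits, where 2.04% of all genes were called higher against control and 1.17% against null. These lists are short, so nothing is read from their counts. Of 16 genes of chondroitin sulfate synthesis, the chain that Ptprz1 carries, 0 were called by limma between Tbx18VP16 and control. Between Tbx18VP16 and null 1 was called, the chondroitin synthase Chsy3, higher by 1.53 ± 0.28 (SE, adjusted p = 0.031). Of 15 other proteins that carry such chains, Tgfbr3, the betaglycan that presents TGF-beta ligands, was higher in Tbx18VP16 pools by 1.19 ± 0.26 against control (adjusted p = 0.0389) and by 1.51 ± 0.26 against null (adjusted p = 0.0248). The Tgfbr3 call against null did not hold without null pool 2, null pool 3 or either Tbx18VP16 pool, and that against control held, among the fits without 1 pool, only without null pool 1. The Chsy3 call did not hold without control pool 2, null pool 2, null pool 3 or either Tbx18VP16 pool. Among 8 syndecan adaptors and sheddases 0 were called in limma's fits.

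Of 11 other proteins reported to bind pleiotrophin or midkine, 1 was called between Tbx18VP16 and control. The share over all genes was 2.04% called higher and 5.34% in either direction. Itgb3, the integrin subunit that pairs with Itgav, was higher in Tbx18VP16 than in control pools by 1.76 ± 0.36 (SE, adjusted p = 0.0341, limma). Itgb3 is also a gene of platelets, and the sum of 8 platelet and megakaryocyte markers was 4.6 to 9.06 in Tbx18VP16, 0.1 to 1.69 in null and 0.074 to 0.12 in control pools. All 8 markers were well above background on both Tbx18VP16 arrays, against 1 to 3 of them in control pools, and their part in the Itgb3 difference was not tested. The Itgb3 call did not hold when any 1 of the control or Tbx18VP16 pools was left out, with adjusted p of 0.0549 to 0.348. The phosphatase Ptprs averaged 4.27 in Tbx18VP16, 4.52 in null and 4.6 in control pools. Nucleolin, Ncl, averaged 4.81 in Tbx18VP16, 4.91 in null and 4.59 in control pools. The endocytic receptor Lrp1 averaged 0.076 in Tbx18VP16, 0.6 in null and 0.65 in control pools, and the integrin subunit Itgb1 2.06 in Tbx18VP16, 1.89 in null and 2.06 in control pools. None of these 4 was called in limma's fits. Between null and control 0 genes of these other lists were called by limma, with or without the replicate number as a block.

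The genes whose levels followed Ptn most closely over the 8 arrays were sought among 15191 named genes by Pearson's r, as a description with no test. They were Sfrp1 (r = 0.995), Pcdh8 (0.975), Otor (0.975), Dlg2 (0.969) and Sfrp2 (0.965). The 8 arrays share their genotype groups, so any gene high in control pools alone has a high r. Sfrp1 and Sfrp2 encode secreted proteins that bind Wnt ligands. Sfrp2 read 1.84 and 1.4 in Tbx18VP16 pools, 1.96, 2.43 and 2.23 in null pools, and 3.64, 4.5 and 4.1 in control pools. Sfrp1 read 1.02 and 1.17 in Tbx18VP16 pools, 1.13, 1.2 and 1.31 in null pools, and 1.98, 2.02 and 2.05 in control pools. Its null difference of -0.81 was smaller than those of Sfrp2 (-1.88), Pcdh8 (-2.11) and Otor (-2). For Mdk the closest were Anapc13 (r = 0.982), Zfp316 (0.98), Ambra1 (0.978), Pebp1 (0.977) and Klk1b4 (0.975). Klk1b4 was dim, at -7.61 to -5.25, and was not bright enough to be tested between null and control. Pebp1, an inhibitor of Raf kinase, read 4.82 and 4.99 in Tbx18VP16 pools, 5.37, 5.25 and 5.08 in null pools, and 5.19, 5.13 and 5 in control pools.

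Promoter windows from RefSeq (GRCm38.p6), of 300 bases around the gene's start, were found for 6 of the 8 genes. The T-box half-site AGGTGTGA was on neither strand of any of the 6, and 1.28% of all 32851 windows held it. Its shorter core AGGTGT, which the half-site contains, was also in 0 of the 6, against 13.7% of all windows. A window without these letters says nothing on binding elsewhere.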

How the data were processed

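RNA of sorted cells was measured on 8 arrays of 1 colour. The deposited scanner files hold spot intensity values, corrected for background by Agilent Feature Extraction 10.7.3.1 per the submitters' processing notes. The authors' deposited value table, also intensity, has the same sorted values in all 8 columns, with a floor of 10, and served as an alternative.

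Spots of control type and those with an outlier flag (1.861% to 2.55%) were dropped. Each member probe kept 3 or 4 spots, whose mean signal was put on the log2 scale and set against the array's 75th percentile over the 39429 common probes. The 75th percentile was 975.883 to 2128.86. A member's probes were those whose gene name in the files equals the member, and other probes were named through RefSeq tables (GRCm38.p6): 28362 by accession, 3059 by symbol and 345 by synonym, with 7663 keeping the files' name. Coordinates are the files' (mm9).

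Probes entered a fit when well above background on 3 of 6 arrays (null and control) or 2 of 8 arrays, and a gene was read by its brightest such probe. limma 3.58.1 (R 4.3.3, lmFit and eBayes) compared null with control on 6 arrays and Tbx18VP16 with each on 8 arrays, with Benjamini-Hochberg adjustment over all genes and a two-sided threshold of 0.05. The fits were tested on simulated data. The precision is limited by the number of arrays. The Ndst3 fold is a lower bound for the main background correction only. It was taken against the larger of its measured control level and the dimmest level called well above background on each array.

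The members and lists were chosen with earlier results of these data known. Text names all members, up to 4 called genes per list, direction and comparison, Lrp1, Ncl, Ptprs and Itgb1, and the 5 genes most like Ptn and Mdk. Sulf1 and Hs3st6 between null and control, and Alkal2, were named after their values were seen. Replicate numbers pair null and control pools: their deviations from group means correlated at 0.827, 0.708 and 0.429 within numbers, and at -0.753 to 0.321 between numbers. Deviations within a group cancel out, so positive values within numbers force lower ones between them. For Tbx18VP16 the values with null and control were 0.0581 and 0.0248 for number 1, and -0.155 and -0.255 for number 2. With 2 pools the deviations of 1 mirror those of the other, so these values cannot show whether the numbers pair. Pools 1 and 2 of null and control were on 1 slide, scanned together, from 20 ng of RNA. Pools 3 were on another slide, from 10 ng.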

Additional observations from a re-analysis of the deposited data

How the results depend on the processing

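The differences were recomputed under 22 other settings between null and control and 20 in each comparison with Tbx18VP16, some chosen after seeing the data (scaling by all spots, the other probe, both pools 3 left out, and the block without a pair). Among these counts is scaling by the 75th percentile over all non-control probes of each array, which repeated the main fit. Ptn stayed below control in all settings, by -1.9 to -1.69 in null and -2.05 to -1.18 in Tbx18VP16 pools. Ptprz1 stayed above in Tbx18VP16 pools, by 0.73 to 1.53 against control and 0.81 to 1.73 against null. Genes called between null and control numbered 183 with the replicate block (1 member, Ptn), 63 in the fit of 8 arrays (1 member), 1 with no filter, 14 with the stricter filter and 6 with slide as a block. The block gave 15, 11 and 906 without pair 1, 2 or 3, the last with 2 members, Ptn and Sdc2. Nothing is read from the calls of Ptn in any setting or from its steady range, since its null and control values chose the set. Leaving out 1 pool gave 0 to 3 genes and 0 to 0 members. Against control, Tbx18VP16 calls (419 higher, 678 lower) numbered 626 with normexp, 3622 with the replicate block and 39 to 1934 without 1 pool (0 to 2 members). The median of all genes was 0.322 with scaling by all spots, which gave 1136 higher and 252 lower calls, and quantile normalisation gave 557 and 620, the authors' values 565 and 565. Each of these 3, and the mean of a gene's probes, called 2 members, Ptn and Ptprz1. Leaving out a Tbx18VP16 pool leaves 1, assumed to vary like the other groups. Whether the Tbx18VP16 replicate numbers pair with other pools could not be told, so the block there rests on numbers alone. With it Alkal2 was called lower against null (-1.06, adjusted p = 0.0237, limma). Alkal2 was also called higher in null than control with the block without pair 3. Against null the counts were 404 with normexp, 3277 with the block and 0 to 815 without 1 pool (0 to 1 members). Ptprz1 was the 1 member called there with quantile normalisation, the authors' values, the stricter filter, the mean of probes, the block and its other probe. In 11 of the 20 settings against null Ptprz1 stayed uncalled, as in the main fit. With scaling by all spots 2 were called, Ptprz1 and Sdc2. The count over all genes was 3277 with the block and is not given here for the others. Nothing is therefore read from these member counts. Signs turned in small differences, and the cause was not tested. Between null and control these were Sdc1 (0.056) and Sdc4 (0.14) within slide 1, the same with the block without pair 3, Ptprz1 (0.035) with the block without pair 1, and without 1 pool Ptprz1 (-0.38 to 0.0059), Mdk (-0.0034 to 0.29), Sdc1 (-0.27 to 0.18), Sdc3 (-0.16 to 0.59) and Sdc4 (-0.71 to 0.27). Against control in Tbx18VP16 pools they were Mdk (0.072 quantile, 0.064 authors' values, 0.14 all spots), Sdc2 (0.00398 authors' values, 0.36 all spots, -0.24 to 0.029 without 1 pool) and Alk (0.013 all spots). Against null they were Ptn (0.21 mean of probes, 0.29 all spots, 0.58 other probe), Mdk (0.0032 authors' values), Sdc1 (0.057 all spots) and Alk (-0.13 normexp, -0.088 block, -0.19 without both pools 3, -0.19 to 0.39 without 1 pool). Differences of heparan sulfate genes against control were positive in 18 to 29 of those tested, with 0 to 6 called higher. The probes' spots on an array agreed closely (median SD 0.051), so the small number of pools limits precision more than the spots do.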
